A study of Mus musculus with 8 samples.

Results

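The ErbB receptors and the EGF-family growth factors that bind them were measured in 4T1 spheroids carrying a hairpin against Tlr7 or a control hairpin. The set holds 10 genes, chosen by name as ErbB receptors and EGF-family ligands: the receptors Egfr, Erbb2 and Erbb3 and the ligands Areg, Ereg, Hbegf, Tgfa, Btc, Epgn and Nrg1. All 10 have a row among the 41730 rows of the count table, and 8 of them were among the 13393 genes that passed the filter on low counts. Ereg and Epgn did not pass it.

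4T1 is a mouse mammary carcinoma line derived from a BALB/c mouse. In the shTlr7 group (n = 4) the cells had received a lentivirus for a hairpin RNA that targets Tlr7, and in the shCtrl group (n = 4) a lentivirus for a scrambled hairpin. Both groups were grown as hanging-drop spheroids in DMEM with serum, and RNA was sequenced from the whole spheroid. The labels name a single hairpin against Tlr7 and do not say whether the transduced cells were a pool or a clone, or whether each library stands for a culture of its own. The p-values therefore reflect the spread among these libraries alone, and that spread may be technical.

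ErbB receptors are receptor tyrosine kinases of the cell surface. EGFR is bound by TGF-alpha, amphiregulin, HB-EGF, betacellulin, epiregulin and epigen, whereas neuregulins bind ERBB3 and ERBB4. ERBB2 has no known ligand of its own and signals as the partner of the other receptors, and ERBB3 has little kinase activity and relays mostly to PI3K when paired with ERBB2. The ligands are made as membrane proteins and are released by ADAM proteases. In the mammary gland amphiregulin is the main EGFR ligand of duct growth.

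Totals per library ran from 18.1 to 93.8 M counts, and the biological coefficient of variation within groups was 6.76%. The library numbered 4 of each group stood apart from the rest on the second principal component, which held 4.85% of the variance. Tlr7 had 7 counts in all over the shTlr7 libraries and 9 over the shCtrl libraries, so that the knockdown could not be checked at this depth. The pooled ratio was 0.475, with an exact 95% interval from 0.15 to 1.43 that covers counting error only. All 5 epithelial markers (Epcam, Cdh1, Krt8, Krt18 and Krt19) were present, with summed levels of 3482 to 3753 CPM (counts per M library counts, with library sizes scaled by TMM) in shTlr7 and 4266 to 4480 CPM in shCtrl. Among them Epcam and Cdh1 were higher in shTlr7, with log2 fold changes of 0.15 and 0.20, and Krt8, Krt18 and Krt19 were lower, at -0.37, -0.47 and -0.69 (edgeR adjusted p at most 0.0297). Of 5 myoepithelial markers, Krt5 was at 0 in every library, and the list summed to 3.97 to 5.68 CPM in shTlr7 and 34.5 to 41.2 CPM in shCtrl. That difference was mostly Krt14, at 3.26 ± 1.08 CPM in shTlr7 and 36.2 ± 2.95 CPM in shCtrl (SD, n = 4 each), and the part of such cells in the results was not tested. The 6 immune markers, with Adgre1 at 0, summed to 0.429 to 0.799 CPM in shTlr7 and 1.12 to 1.51 CPM in shCtrl. The 5 endothelial ones, with Emcn at 0, summed to 0.399 to 0.643 CPM in shTlr7 and 0.221 to 0.377 CPM in shCtrl. Fibroblast markers summed to 43.1 to 48.0 CPM in shTlr7 and 43.9 to 45.3 CPM in shCtrl. Nearly all of that sum was Pdgfra, with a mean of 43.6 CPM in shTlr7 and 42.3 CPM in shCtrl. Col1a1 averaged 1.64 CPM in shTlr7 and 2.22 CPM in shCtrl, and Col1a2, Dcn and Lum were too low to be tested.

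Of the 8 members tested, 4 were higher in shTlr7 (Erbb3, Btc, Areg and Tgfa) and 2 were lower (Hbegf and Nrg1), while Egfr and Erbb2 did not pass the threshold (edgeR quasi-likelihood test, Benjamini-Hochberg adjusted p under 0.05 over all genes tested). Over all genes tested, 56.1% were called, 29.3% as higher and 26.8% as lower, and the count of 6 of 8 is read against that background. The CPM ranges of the groups did not overlap for 6 of the 8 members, against 49.8% of all genes tested. A call with at least a 2-fold change was made for 1 member, Nrg1, and for 7.52% of all genes. The median log2 fold change was 0.12 over the members tested and 0.01 over all genes tested. Scaling by library size alone changed the split over all genes, 3927 higher and 3590 lower with TMM, to 5513 higher and 2491 lower, and left the 4 higher and 2 lower members as they were.

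**Figure D1:**
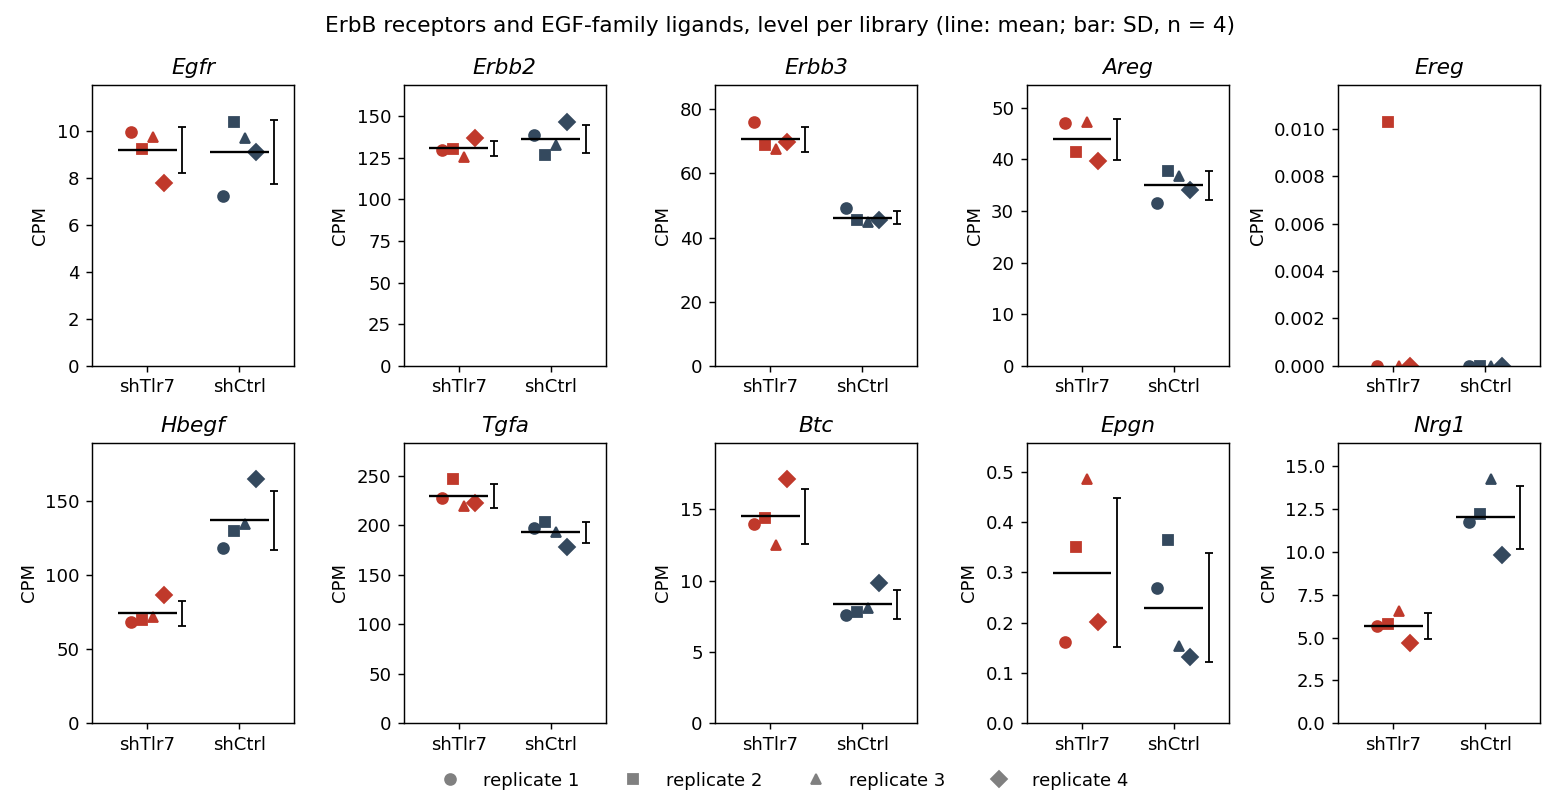
CPM (TMM-scaled) of each member in every library, shTlr7 left of shCtrl, with the marker shape giving the replicate number, a line for the mean and a bar for the SD (n = 4), except Ereg, which has 1 count in all and no mean drawn. The groups are apart for Erbb3, Areg, Hbegf, Tgfa, Btc and Nrg1 and overlap for Egfr, Erbb2 and Epgn.

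The receptors differed from each other in their response. Erbb3 (chromosome 10, 128567523 to 128589635, GRCm38.p6, minus strand) stood at 76.2, 68.7, 67.7 and 69.8 CPM in shTlr7 replicates 1 to 4, against 49.2, 45.5, 44.8 and 45.3 CPM in shCtrl replicates 1 to 4. Every shTlr7 library lay above every shCtrl library. Erbb3 thus rose 1.53-fold, a log2 fold change of 0.61 ± 0.05 (SE) with an edgeR adjusted p of 4.15e-07, the lowest of the members. A larger change in either direction was seen for 16.9% of all genes tested.

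Erbb2 (chromosome 11, 98412484 to 98437716, plus strand) had 130, 130, 126 and 137 CPM in shTlr7, against 139, 127, 133 and 147 CPM in shCtrl. The groups overlapped. Its log2 fold change was -0.06 ± 0.05 (SE, edgeR adjusted p = 0.315), and an interval of 2 SE runs from a 0.897-fold to a 1.03-fold level. Egfr (chromosome 11, 16752203 to 16913907, plus strand) was the receptor with the fewest counts, 134 to 894 per library. It had 9.97, 9.23, 9.76 and 7.79 CPM in shTlr7, against 7.23, 10.4, 9.69 and 9.10 CPM in shCtrl. Both the highest and the lowest library were in shCtrl. The log2 fold change of Egfr was -0.01 ± 0.11 (SE, edgeR adjusted p = 0.955), with a 2 SE interval from 0.851-fold to 1.16-fold. Scaling by library size alone turned the sign for both, to 0.04 for Erbb2 and 0.10 for Egfr, still without a call.

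The fourth receptor of the family, Erbb4, had 0 counts in all 8 libraries, but the count table holds another row for a copy of it, also at 0. Its level is therefore uncertain. None of the 10 members has such a copy.

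**Figure D2:**
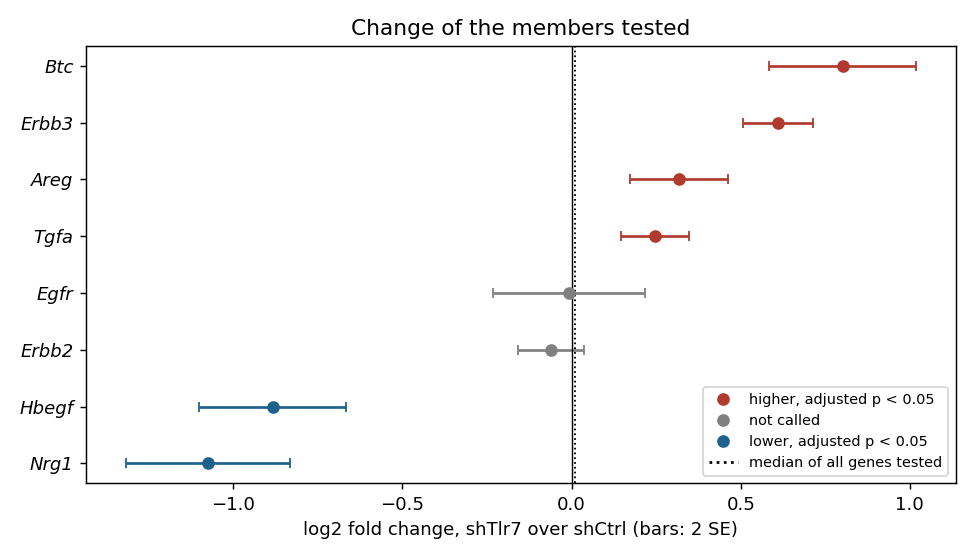
Log2 fold change (shTlr7 over shCtrl) of the 8 members tested, with bars of 2 SE, ordered by size. Btc, Erbb3, Areg and Tgfa lie above 0, Hbegf and Nrg1 lie below 0, and the bars of Egfr and Erbb2 cross 0. The dotted line is the median of all genes tested, 0.01.

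Among the EGFR ligands tested, Hbegf fell while Areg, Btc and Tgfa rose. Hbegf (chromosome 18, 36504927 to 36515805, minus strand) encodes heparin-binding EGF-like growth factor, a ligand of EGFR and ERBB4. It had 68.6, 69.6, 71.9 and 86.5 CPM in shTlr7, against 118, 130, 134 and 164 CPM in shCtrl. The groups did not overlap, and the library numbered 4 was the highest of each group. Hbegf fell to 0.542 of its shCtrl level, a log2 fold change of -0.88 ± 0.11 (SE, edgeR adjusted p = 9.61e-05), and without both libraries numbered 4 the log2 fold change was -0.87.

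Nrg1 (chromosome 8, 31807452 to 32891609, minus strand), which encodes neuregulin 1, a ligand of ERBB3 and ERBB4, had 5.68, 5.77, 6.53 and 4.67 CPM in shTlr7, against 11.8, 12.2, 14.2 and 9.81 CPM in shCtrl. Here the library numbered 4 was the lowest of each group, and the groups did not overlap. The level in shTlr7 was 0.475-fold that in shCtrl, with a log2 fold change of -1.08 ± 0.12 (SE, edgeR adjusted p = 6.56e-06). It was the largest change of the members tested, and 6.55% of all genes tested changed more. Nrg1 has 12 coding transcripts in GENCODE M21, so the counts do not say which isoforms fell. An antisense gene, Gm26578, covers 5.61% of its exon bases.

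The 4 EGFR-ligand genes Epgn, Ereg, Areg and Btc lie in that order on mouse chromosome 5 with no other protein-coding gene between them, within 375 kb (91027517 to 91402994, GRCm38.p6). Areg and Btc were both higher in shTlr7, and Epgn and Ereg were close to absent from all libraries. The 250 bases before the annotated start of Areg, Btc and Epgn are printed from RefSeq (GRCm38.p6), 5′ to 3′ in the direction of the gene, because Areg and Btc rose together while Epgn, in the same cluster, stayed near 0. Tgfa, on chromosome 6, is shown beside them as an EGFR ligand outside the cluster that rose as well. The start used for its window lies inside the span given for the gene. Capitals mark the core of a cyclic AMP response element (CRE, TGACG on either strand) and the TATA box (TATAAA on either strand).
Areg, chr5:91139349-91139598, plus strand: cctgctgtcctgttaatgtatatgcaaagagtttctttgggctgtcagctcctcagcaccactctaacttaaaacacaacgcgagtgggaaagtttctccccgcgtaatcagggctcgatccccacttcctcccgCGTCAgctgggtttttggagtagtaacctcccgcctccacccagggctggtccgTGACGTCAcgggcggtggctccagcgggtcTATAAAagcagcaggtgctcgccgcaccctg
Btc, chr5:91402995-91403244, minus strand: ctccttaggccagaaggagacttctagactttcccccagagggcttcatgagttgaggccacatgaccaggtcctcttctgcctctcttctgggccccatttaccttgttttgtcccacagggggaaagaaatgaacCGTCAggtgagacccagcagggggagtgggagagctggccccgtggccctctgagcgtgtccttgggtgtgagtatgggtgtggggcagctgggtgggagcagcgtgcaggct
Epgn, chr5:91027267-91027516, plus strand: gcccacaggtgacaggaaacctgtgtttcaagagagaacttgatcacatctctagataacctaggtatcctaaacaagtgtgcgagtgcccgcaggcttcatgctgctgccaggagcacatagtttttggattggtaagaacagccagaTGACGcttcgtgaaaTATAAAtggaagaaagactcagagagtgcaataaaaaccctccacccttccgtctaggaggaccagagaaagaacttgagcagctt
Tgfa, chr6:86194972-86195221, plus strand: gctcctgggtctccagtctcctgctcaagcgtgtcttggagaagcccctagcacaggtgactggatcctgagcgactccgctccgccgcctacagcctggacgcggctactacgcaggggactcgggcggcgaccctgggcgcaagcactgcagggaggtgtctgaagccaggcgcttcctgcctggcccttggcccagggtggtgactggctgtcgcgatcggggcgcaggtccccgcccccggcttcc

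The Areg window holds 3 matches to the CRE core, which begin 115, 61 and 58 bases before the start. The last 2 of them overlap on opposite strands and form a palindrome, followed by a GC box (GGGCGG) that begins at 52 bases and a TATA box that begins at 31 bases before the start. Btc has 1 CRE core at 113 bases and no TATA match, and Epgn has 1 CRE core at 101 bases and a TATA match at 86 bases. Tgfa has neither, and has a GC box at 126 and at 15 bases. Over all 32851 RefSeq windows of 250 bases, 17.8% hold a CRE core, 12.4% a TATA match and 32.7% a GC box on either strand. The AP-1 motif TGANTCA (6.75% of windows), the core of the interferon-stimulated response element (2.98%) and the NF-kB motif (7.25%) were searched in the same way and were in none of the 6 member windows in the table, those of Egfr, Erbb2, Areg, Tgfa, Btc and Epgn. The TEAD motif GGAATG (12.6%) was in that of Erbb2 alone, and 4 of the 6 windows hold a CRE core. Erbb3, Ereg, Hbegf and Nrg1 are named only. These matches describe the letters of the windows and say nothing of binding.

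Areg (chromosome 5, 91139599 to 91148432, plus strand), which encodes amphiregulin, stood at 47.0, 41.4, 47.3 and 39.7 CPM in shTlr7, against 31.4, 37.6, 36.8 and 34.0 CPM in shCtrl. The lowest shTlr7 library lay just above the highest shCtrl library. Areg rose 1.25-fold, with a log2 fold change of 0.32 ± 0.07 (SE, edgeR adjusted p = 0.00213). A larger change was found for 37.8% of all genes tested.

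Btc (chromosome 5, 91357261 to 91402994, minus strand) encodes betacellulin, which binds both EGFR and ERBB4. Its level was 14.0, 14.4, 12.5 and 17.1 CPM in shTlr7, against 7.60, 7.80, 8.05 and 9.85 CPM in shCtrl. As for Hbegf, the library numbered 4 was the highest in each group, although the 2 genes differed between groups in opposite directions. Btc rose 1.74-fold, a log2 fold change of 0.80 ± 0.11 (SE, edgeR adjusted p = 3.17e-05), and 0.80 without both libraries numbered 4.

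Tgfa (chromosome 6, 86195038 to 86275744, plus strand) encodes transforming growth factor alpha and had more counts than any other member, 3651 to 23888 per library. It had 228, 247, 220 and 222 CPM in shTlr7, against 197, 204, 193 and 178 CPM in shCtrl. The groups did not overlap. The rise was the smallest of the 4, 1.19-fold, with a log2 fold change of 0.25 ± 0.05 (SE, edgeR adjusted p = 8.52e-04), and 47.6% of all genes tested changed more. It was 0.22 without both libraries numbered 4, 0.33 for Areg, 0.60 for Erbb3 and -1.09 for Nrg1.

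Epgn (chromosome 5, 91027517 to 91035212), which encodes epigen, had 3, 34, 17 and 6 counts in shTlr7 replicates 1 to 4, against 5, 18, 3 and 3 counts in shCtrl replicates 1 to 4. That is 0.161 to 0.485 CPM in shTlr7 and 0.133 to 0.364 CPM in shCtrl, ranges that overlap. Pooled over each group, 60 counts in shTlr7 stood against 29 in shCtrl, a ratio of 1.26 after scaling for depth, with an exact 95% interval from 0.798 to 2.04 that covers counting error only. Without the filter on low counts its log2 fold change was 0.36 ± 0.39 (SE, edgeR adjusted p = 0.487). Ereg (chromosome 5, 91074617 to 91093649), which encodes epiregulin, had 1 count in shTlr7 replicate 2 and 0 counts in the other 7 libraries. A count of 0 allows up to 0.0856 to 0.161 CPM in the other 3 shTlr7 libraries and 0.0607 to 0.162 CPM in the shCtrl libraries (3 counts per library), so no fold is given.

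Set side by side per length, the order of the levels was not the same in both groups. In CPM per kb of the longest GENCODE M21 transcript, Tgfa led in shTlr7 with 50.6 ± 2.68, followed by Areg with 36.1 ± 3.21, Hbegf with 31.2 ± 3.52 and Erbb2 with 26.1 ± 0.90 (SD, n = 4). In shCtrl, Hbegf led with 57.6 ± 8.27, followed by Tgfa with 42.6 ± 2.35, Areg with 28.8 ± 2.32 and Erbb2 with 27.2 ± 1.71. Areg and Hbegf overlapped over the 4 shTlr7 libraries, as did Areg and Erbb2 over the 4 shCtrl libraries. Below them in shTlr7 came Erbb3 at 11.7 CPM per kb, Btc at 5.04, Nrg1 at 1.05, Egfr at 0.90 and Epgn at 0.17. In shCtrl the same genes followed in the same order, Erbb3 at 7.68 CPM per kb, Btc at 2.90, Nrg1 at 2.22, Egfr at 0.892 and Epgn at 0.131. Nrg1 and Egfr overlapped in shTlr7 and did not in shCtrl, and with all exons joined their order in shTlr7 was the reverse, 0.719 for Nrg1 and 0.831 for Egfr. Levels per kb rest on the length chosen, which matters most for Nrg1, whose coding transcripts run from 407 to 5415 bases.

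**Figure D3:**
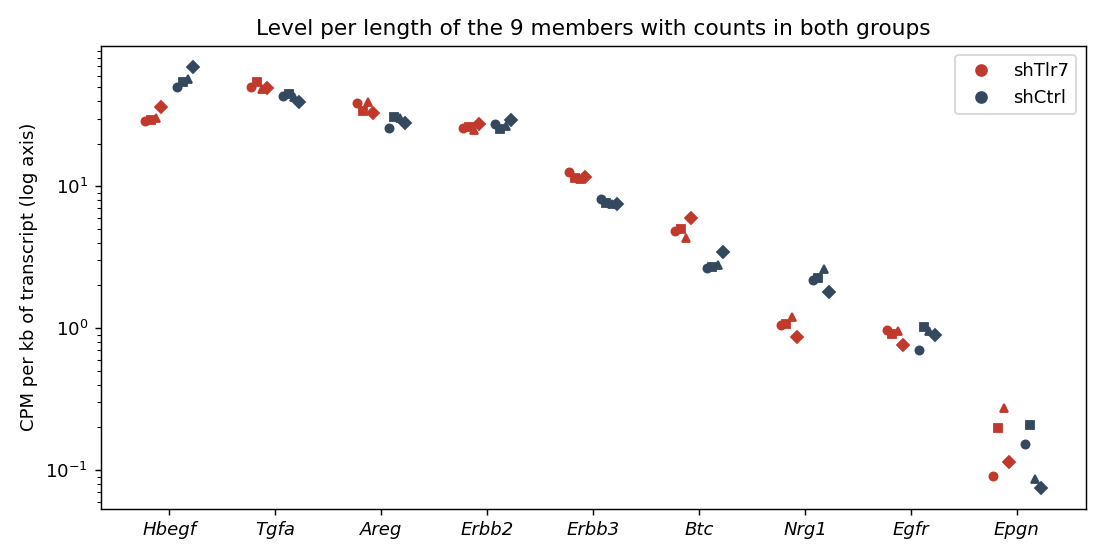
CPM per kb of the longest transcript on a log axis, by library, for the 9 members with counts in both groups, shTlr7 left of shCtrl within each gene. Hbegf is the highest in all 4 shCtrl libraries and Tgfa in all 4 shTlr7 libraries, and Egfr lies far below Erbb2 in both groups.

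The summed level of the 6 EGFR ligands overlapped between groups, at 123 ± 0.77 CPM per kb in shTlr7 and 132 ± 7.48 CPM per kb in shCtrl (SD, n = 4 each), while its make-up did not. The overlap of the summed level rests on shCtrl replicate 1, at 122.0 CPM per kb. In shCtrl replicates 2 to 4 the sum was 133, 132 and 140, above the shTlr7 range of 122.4 to 124.2. Hbegf held 23.5% to 29.3% of that sum in shTlr7 and 40.9% to 49.4% in shCtrl. The share of Tgfa was 39.5% to 44.3% in shTlr7 and 28.1% to 35.6% in shCtrl, that of Areg 26.3% to 31.8% in shTlr7 and 19.96% to 23.2% in shCtrl, and that of Btc 3.54% to 4.79% in shTlr7 and 2.03% to 2.44% in shCtrl. Because shares of a sum depend on each other, a lower Hbegf level by itself raises the shares of the other ligands. Tgfa stood 1.35 to 1.86 times as high as Hbegf in shTlr7, and 0.569 to 0.872 times as high in shCtrl. In bulk RNA, fewer cells that make a transcript and less of it per cell cannot be told apart. These sums were not tested, since the members were chosen with earlier results known.

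**Figure D4:**
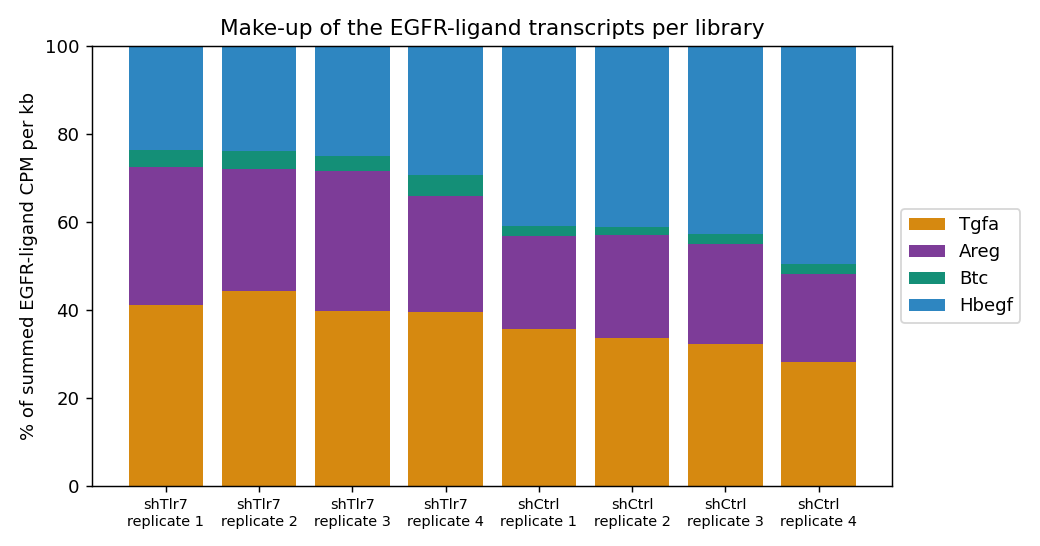
Share of each ligand in the summed CPM per kb of the 6 EGFR ligands, by library, shTlr7 left of shCtrl. The Hbegf share is below 30% in every shTlr7 library and above 40% in every shCtrl library. Epgn and Ereg hold at most 0.225% and are not drawn.

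Among the receptors, Erbb3 held 29.3% to 32.04% of the summed CPM per kb in shTlr7 and 19.99% to 22.4% in shCtrl, and Erbb2 held 65.5% to 68.8% in shTlr7 and 74.6% to 77.6% in shCtrl. Shares of a sum depend on each other, and Erbb2 itself was not called (edgeR adjusted p = 0.315). The ratio of Erbb3 to Erbb2 was 0.451 ± 0.027 in shTlr7 and 0.283 ± 0.019 in shCtrl (SD, n = 4 each).

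Of the other ligand genes of the family, Nrg2 rose and Nrg4 fell. Nrg2, which encodes neuregulin 2, had 6.75, 7.24, 6.53 and 6.18 CPM in shTlr7, against 4.42, 4.37, 5.05 and 4.15 CPM in shCtrl, a log2 fold change of 0.58 ± 0.10 (SE, edgeR adjusted p = 2.34e-04). Per kb, Nrg2 had 2.18 CPM in shTlr7 and 1.47 in shCtrl, while Nrg1 had 1.05 in shTlr7 and 2.22 in shCtrl. With all exons joined, Nrg2 had 2.13 CPM per kb in shTlr7 and 1.43 in shCtrl, and Nrg1 had 0.719 in shTlr7 and 1.52 in shCtrl. The mean of Nrg1 was thus above that of Nrg2 in shCtrl with either length, but the size of its lead rests on the length chosen. Nrg4, which encodes a ligand of ERBB4, had 1.77, 1.59, 1.88 and 1.75 CPM in shTlr7, against 2.32, 1.98, 2.45 and 3.36 CPM in shCtrl, a log2 fold change of -0.52 ± 0.17 (SE, edgeR adjusted p = 0.0208). That call was lost without shCtrl replicate 4 (-0.36, edgeR adjusted p = 0.0643), and without shTlr7 replicate 2 (-0.46, edgeR adjusted p = 0.0755). A gene on the opposite strand, Fbxo22, covers 7.52% of the Nrg4 exon bases. Egf itself was at 0.463 ± 0.109 CPM in shTlr7 and 0.352 ± 0.040 CPM in shCtrl (SD, n = 4 each; log2 fold change 0.40, edgeR adjusted p = 0.225), with 23.1% of its exon bases shared with antisense genes. Nrg3 had 1 count in 1 shTlr7 library and 0 elsewhere.

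Of 14 tested members of a list of sheddases and trafficking factors, 3 rose and 8 fell. That is 78.6% called, against 56.1% of all genes tested, of which 29.3% were higher and 26.8% lower. The median log2 fold change of the list was -0.23, beside 0.01 over all genes. The ADAM proteases went both ways: Adam15, Adam9 and Adam17 rose, Adam12, Adam8 and Adam19 fell, and Adam10 was not called. The other 5 lower genes, named after their values were seen, were Rhbdf2, Rhbdl2, Frmd8, Cd9 and Tmed10, with log2 fold changes from -0.37 to -0.23. Adam12, a sheddase of HB-EGF, had 10.0 ± 1.11 CPM in shTlr7 and 55.5 ± 7.67 CPM in shCtrl (log2 fold change -2.47 ± 0.11 SE, edgeR adjusted p = 8.67e-09), with SD over n = 4 each. Adam8 had 55.5 ± 3.94 CPM in shTlr7 and 167 ± 8.25 CPM in shCtrl, and Adam19 had 12.5 ± 1.16 CPM in shTlr7 and 27.8 ± 2.30 CPM in shCtrl (SD, n = 4 each). Adam15 rose to 141 ± 5.38 CPM in shTlr7, against 94.0 ± 4.73 CPM in shCtrl. The other 2 higher genes were Adam17, the main sheddase of amphiregulin and TGF-alpha, at 0.12 ± 0.05, and Adam9 at 0.14 ± 0.05 (log2 fold change, SE; both chosen after their values were seen). Their edgeR adjusted p was 0.0407 and 0.0321, and the count of higher genes was 1 in place of 3 with RLE scaling, with DESeq2 and without shCtrl replicate 1, shCtrl replicate 3, shTlr7 replicate 1 or shTlr7 replicate 2. Adam10, the main sheddase of betacellulin, chosen in the same way, had 304 ± 23.3 CPM in shTlr7 and 314 ± 6.25 CPM in shCtrl and was not called (edgeR adjusted p = 0.43).

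Of the genes that inhibit or degrade the receptors, more fell than rose. Of 22 tested in this list, 2 rose and 8 fell, or 45.5% called against 56.1% of all genes. By direction, 29.3% of all genes tested were higher and 26.8% were lower. Their median log2 fold change was -0.07. Lrig1, a membrane protein that promotes the degradation of ErbB receptors, fell to 339 ± 20.02 CPM in shTlr7, against 478 ± 19.3 CPM in shCtrl (SD, n = 4 each). The log2 fold change was -0.50 for Lrig1, -0.55 for the ubiquitin ligase Cblb, -0.61 for the CBL-binding adaptor Sh3kbp1 and -0.60 for the tetraspanin Cd82, with an edgeR adjusted p of at most 1.72e-06. The 2 higher genes, chosen after their values were seen, were Rnf41, which encodes a ubiquitin ligase for ERBB3, at 0.21, and Socs4 at 0.14. Their number was 1 without shCtrl replicate 1, without shCtrl replicate 3 and without both libraries numbered 4, and 5 with library size alone. The feedback inhibitor Errfi1 was listed at 0 in every library, and a copy of it has a row as well, so it could not be measured.

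Adaptors and kinases downstream of the receptors went both ways. Of 26 tested, 13 rose and 7 fell, or 76.9% called against 56.1% of all genes tested, of which 29.3% were higher and 26.8% lower. Their median log2 fold change was 0.10. Mapk3, which encodes the kinase ERK1, fell to 130 ± 3.79 CPM in shTlr7, against 205 ± 9.58 CPM in shCtrl (SD, n = 4 each), a log2 fold change of -0.65. The kinase Src fell by 0.51 on the log2 scale, and the small GTPase Hras rose by 0.44 (edgeR adjusted p at most 6.20e-06 for these 3 genes). A row for a copy of Vav3 also exists, and Vav3 was not tested.

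Transcripts known to be induced by EGFR and ERK signalling did not move one way. Of 22 tested, 4 rose and 5 fell, or 40.9% called against 56.1% of all genes tested. Their median log2 fold change was -0.13. The phosphatase Dusp5 rose to 32.7 ± 1.04 CPM in shTlr7, against 19.4 ± 2.03 CPM in shCtrl, a log2 fold change of 0.75. Dusp6, the phosphatase of ERK itself, was also higher, at 0.65, as were Etv5 at 0.17 and Spred1 at 0.15. These 3 were picked with their values in view. The cyclin Ccnd1 fell to 1473 ± 35.5 CPM in shTlr7, against 2470 ± 166 CPM in shCtrl, and the feedback inhibitors Spry1 and Spred2 fell by 0.71 and 0.52 on the log2 scale. The immediate early gene Fos, chosen in the same way, varied widely, with 57.0 ± 25.2 CPM in shTlr7 and 139 ± 123 CPM in shCtrl (SD, n = 4 each), and was not called (edgeR adjusted p = 0.14). The numbers of called genes depended on the settings, with 7 higher without both libraries numbered 4, and with 9 lower by limma-voom and 10 lower with the replicate block.

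**Figure D5:**
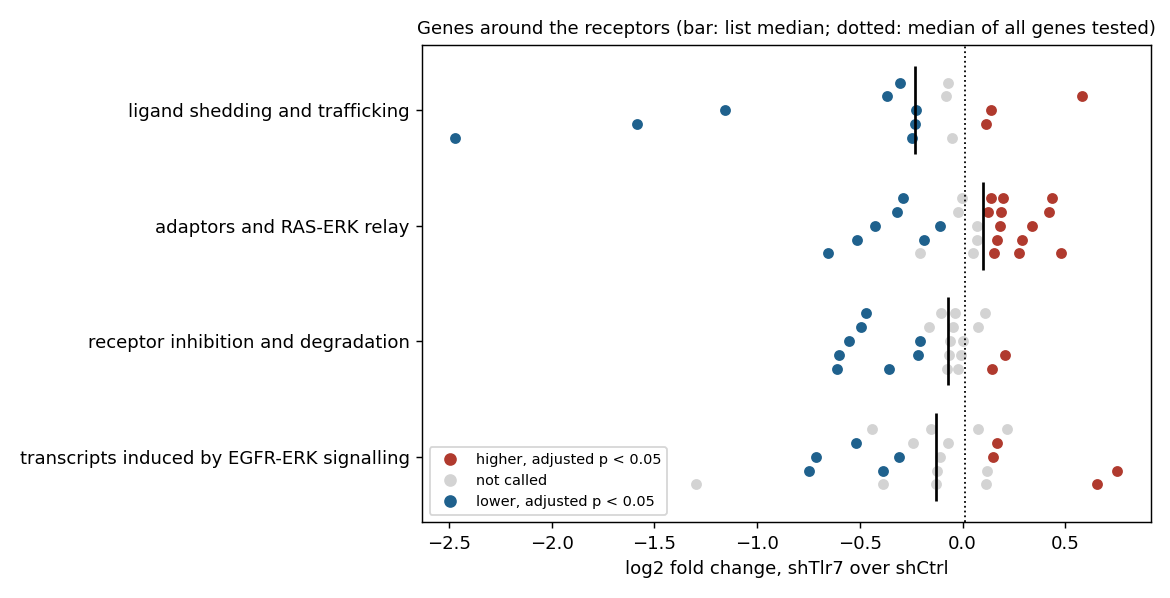
Log2 fold change (shTlr7 over shCtrl) of each tested gene of 4 lists around the receptors, coloured by call, with a black bar at each list's median and a dotted line at the median of all genes tested. The lowest points of the shedding list are Adam12 and Adam8, and the relay and induced lists lie on both sides of 0.

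The genes whose log2 CPM over the 8 libraries was most like that of Erbb3 were Dok4, Tspan13 and Sgcb, with Pearson correlations of 0.998 for Dok4 and 0.997 for both Tspan13 and Sgcb. They are named as a description only, since 842 of 11141 genes compared had a correlation over 0.95 and the difference between groups carries most of it. Dok4 had a log2 fold change of 0.99, Sgcb of 0.71 and Tspan13 of 0.71.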

How the data were processed

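RNA-seq of 8 libraries was analysed. The authors deposited raw read counts as whole numbers, with genes in rows and libraries in columns. STAR 2.7.5, DESeq2 1.32.0 and the build GRCm38 are listed, with no roles, per the submitters' processing notes. How reads were counted, and whether by strand, is not given in the sources used here. Reads of a gene and of its antisense partner therefore cannot be told apart. Groups and replicate numbers come from the sample titles.

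Counts were analysed with edgeR 4.0.16 in R 4.3.3: filterByExpr on the groups, TMM scaling, robust glmQLFit and glmQLFTest with group as the only term, Benjamini-Hochberg adjustment over all 13393 genes tested and a threshold of 0.05. CPM used TMM-scaled library sizes. The SE was obtained as the size of the log2 fold change over the root of its F statistic. Gene positions and promoters are from RefSeq (GRCm38.p6), lengths and overlaps from GENCODE M21. On simulated data over 13393 genes of this comparison, 84% of 50 genes changed 1.5-fold were recovered, and 34% of 50 changed 1.2-fold. The simulation gave 163 calls, against 7517 in the data. Its adjusted threshold was therefore stricter, and these recovered shares may not hold for the data. Libraries of a group all differed by more than sampling noise (chi-square per degree of freedom 2.23 to 21.9).

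Named genes are the members, Tlr7, the other family genes, the 4 genes of lowest p per list, and the 3 genes most like the member of lowest p (Pearson correlation of log2 of CPM plus 0.1, average log2 CPM of at least 1). Some listed genes are not reported here. The members and lists were chosen with earlier results of these data known. Alternatives were RLE scaling, scaling by library size, DESeq2 1.42.0 and limma-voom (limma 3.58.1). Others were no filter, 1 CPM in 4 libraries, the replicate block, leaving out libraries, and thinning to 18.1 M counts.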

Additional observations from a re-analysis of the deposited data

Results flagged for a closer look

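In 60 groups of 4 libraries (30 genes in each of both groups), 2 held a library far from the other 3, where chance flags about 1 in 20. Neither gene is a receptor or a ligand. Cd82 stood at 184 CPM in shTlr7 replicate 4, against 163 to 167 CPM in the other shTlr7 libraries. Adam15 stood at 101 CPM in shCtrl replicate 4, against 90.7 to 92.3 CPM in the other shCtrl libraries.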

How the results depend on the processing

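All 6 called members kept their direction and call, and Egfr and Erbb2 stayed uncalled, under all 17 alternatives. The log2 fold change ranged from 0.58 to 0.71 for Erbb3, from 0.27 to 0.42 for Areg, from 0.20 to 0.35 for Tgfa, from 0.72 to 0.91 for Btc, from -0.97 to -0.78 for Hbegf and from -1.16 to -0.97 for Nrg1. The largest adjusted p was 0.00954, for Areg without shCtrl replicate 1. Library size alone moved the median of all genes tested up by 0.10 on the log2 scale. Counts in the surrounding lists moved more. Higher genes of the shedding list numbered 1 with RLE scaling and 1 with DESeq2 in place of 3, and 1 to 3 when 1 library was left out. Higher genes of the inhibition list numbered 5 with library size alone and 1 without both libraries numbered 4 in place of 2, and 1 to 3 when 1 library was left out. Of the induced transcripts, 7 were higher without both libraries numbered 4, in place of 4, and 9 were lower with limma-voom and 10 with the replicate block, in place of 5. For these the cause was not tested. Nrg4 lost its call with library size alone, with thinned libraries and without both libraries numbered 4, besides the single libraries named above. The deviations of same-numbered libraries correlated at -0.0068 for number 1, 0.114 for number 2, 0.118 for number 3 and 0.38 for number 4, and 2 of 4 shTlr7 libraries correlated best with their own number. The labels give no pairing and number 1 shows none, so the samples were not treated as paired. The replicate block lowered the SE of Hbegf to 0.04, against 0.11 without it, and raised the calls over all genes to 4334 higher and 4005 lower. Depth limits Epgn, Ereg, Egf, Nrg3 and Tlr7, which have few counts.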
